A study of Homo sapiens with 9 samples.

Results

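ASNS, PHGDH, PSAT1, PSPH, SHMT2, MTHFD2, ALDH1L2, PYCR1, ALDH18A1 and SESN2 encode enzymes that make serine, glycine, proline and asparagine, their mitochondrial folate partners and an amino acid sensor. The 10 genes were chosen by a rule of known roles in these pathways and known regulation by the transcription factor ATF4, with earlier results of these data known, and all 10 were found by symbol among the 58395 gene identifiers measured. RNA-seq profiled MDA-MB-231 cells, an established triple negative breast cancer line, 96 h after reverse transfection with 1 of 3 siRNAs. Cells of the siNC group received a nontargeting control siRNA. Cells of the siZIP7_1 and siZIP7_2 groups each received a different siRNA against ZIP7 (SLC39A7), a zinc transporter of the endoplasmic reticulum, so that a response could be compared between siRNAs. Each group had 3 libraries, and all 3 groups were the same line in DMEM with serum and antibiotics, with no drug treatment named. The labels do not say whether the libraries of a group came from separate cultures, so p-values measure the spread between these libraries, which may be technical.

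Serine is built from a glycolytic intermediate by PHGDH, PSAT1 and PSPH in turn, and SHMT2 in mitochondria splits serine into glycine and a folate-bound carbon unit, which MTHFD2 and ALDH1L2 oxidize further. Proline is built from glutamate by ALDH18A1 and then by reductases such as PYCR1, and ASNS makes asparagine from aspartate and glutamine. ATF4 is translated when kinases phosphorylate eIF2 alpha under amino acid shortage or endoplasmic reticulum stress, and it binds a C/EBP-ATF response element (CARE) in many genes of amino acid supply. SESN2 makes no amino acid. It binds leucine and restrains the growth kinase complex mTORC1.

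The core of the CARE, written TGATGNAA, was looked for on both strands of promoter windows from RefSeq (GRCh38.p14) that run from 250 bases before to 50 after a start. Windows were at hand for 6 of the 10 genes, with ASNS holding 2 of the 7 windows, and for 7 of their family counterparts, with 14 windows. The core was in 3.62% of all 35116 windows, in 1 of the 7 windows of the 10 genes and in windows of 1 counterpart, MTHFD1L. The E-box CACGTG, a motif chosen after the expression values were seen, was in 7.26% of all windows, and among the 10 genes in that of ALDH18A1 alone. Among the counterparts it was in 4 of the 14 windows, belonging to 2 genes, MTHFD1 and MTHFD1L. The 3 windows of MTHFD1L with a match overlap and hold the same E-box and the same CARE core. Each of these is therefore counted 3 times, and the window count is not to be read against the share of all windows. PHGDH, PSAT1, MTHFD2 and SESN2 held neither run of letters in their windows, which says nothing about binding elsewhere. Of the stretches with a match, 3 are shown 5′ to 3′ on the strand of the gene with the motif in capitals. They are from the gene whose direction differed between the siRNAs, from MTHFD1L, and from the tested gene of the 10 that fell most with siZIP7_2. The E-box stretches of MTHFD1 and MTHFD1L, counterparts that both fell with both siRNAs, are not shown. The motif matches are descriptions of letters, not shown sites.
ASNS (chr7:97872460-97872489, minus strand, annotated as exonic in 4 GENCODE exons): gtcctcgcaggcaTGATGAAActtcccgca
MTHFD1L (chr6:150866347-150866376, plus strand, overlapping 1 GENCODE exon): ccgccggctcTGATGCAAtcgcgccgggcg
ALDH18A1 (chr10:95656777-95656896, minus strand, upstream of the start, in no GENCODE exon): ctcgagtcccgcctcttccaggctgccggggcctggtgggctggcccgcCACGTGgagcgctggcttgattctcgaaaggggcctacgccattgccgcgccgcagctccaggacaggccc

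Depth ranged from 24153785 to 30454419 counted reads per library, and 3 counts were worth 0.124 CPM (counts scaled to library size by TMM normalization) in the smallest library. The target SLC39A7 had 329 ± 12.5 CPM (SD, n = 3) with siNC, 35.6 ± 2.83 with siZIP7_1 and 19.2 ± 1.45 with siZIP7_2. Reads outside annotated exons made up 7.43% to 8.28% of those handled by the counter with siNC, 7.80% to 9.62% with siZIP7_1 and 9.99% to 11.5% with siZIP7_2, and their part in the results was not tested. Markers of the line were present: VIM, CD44, AXL, EGFR and KRT18 summed to 8840 to 9518 CPM with siNC, 5687 to 6025 with siZIP7_1 and 6652 to 6930 with siZIP7_2. Markers that the line should lack (ESR1, PGR, CDH1, EPCAM, PTPRC and PECAM1) summed to 10.2 to 11.3, 15.0 to 15.4 and 14.5 to 15.3 CPM, with PGR at 0 to 2 and ESR1 at 2 to 15 counts, and the part of these shifts in the results was not tested. In RNA from whole cultures, a change in the share of cells and a change in RNA per cell cannot be told apart.

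In the control cells the 10 genes differed widely in level. Per kilobase of coding sequence, SHMT2 (227 CPM per kb) and PSAT1 (186 CPM per kb) were the highest of the 10, and both stayed the top pair in each siRNA group. PHGDH, which catalyses the first step of serine synthesis, had 39.1 CPM per kb in the siNC group, rank 8 of the 10, so that the later enzyme PSAT1 was well above it on this scale. MDA-MB-231 is known as a line with low PHGDH. ALDH1L2 was the lowest of the 10 in each group, at 0.104 CPM per kb with siNC.

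With siZIP7_1, 6 of the 9 genes tested fell and 0 rose, while 70.7% of all 16761 genes tested passed the same threshold in either direction (34.8% higher, 35.9% lower). With DESeq2, 0 rose as well, beside 5468 higher and 5766 lower of all 16761 genes. At an unadjusted p under 0.05, 0 also rose, and the share of all genes there was not taken. With siZIP7_2, 3 genes rose and 6 fell, against 77.8% of all genes called (38.5% higher, 39.3% lower). PSAT1, MTHFD2, PYCR1, ALDH18A1 and SESN2 fell with both siRNAs, a pattern of 5 genes of 9 that 20.8% of all genes shared. ASNS alone changed in opposite directions with the siRNAs, as 18.7% of all genes did, and 0 rose with both (0 also at an unadjusted p under 0.05), as 17.7% of all genes did. The median log2 fold change of the 9 genes was -0.26 with siZIP7_1 and -0.30 with siZIP7_2, beside -0.01 and 0.00 over all genes. A call here is a p under 0.05 in the quasi-likelihood test of edgeR after Benjamini-Hochberg adjustment over all genes. Both contrasts share the siNC libraries. Upper-quartile in place of TMM normalization moved the median of all genes to 0.10 for siZIP7_2 against siNC. With it, 1 gene of the 9 rose and 6 fell with siZIP7_1, beside 6047 and 5776 of all 16761 genes. With siZIP7_2, 3 rose and 5 fell, beside 7256 and 5803 of all genes. For siZIP7_1, 1 gene of the 9 also rose in 2 other settings. These were at least 10 counts in every library (5201 of all 13820 genes rose) and no siNC replicate 2 (5639 of all 17286 rose).

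**Figure D1:**
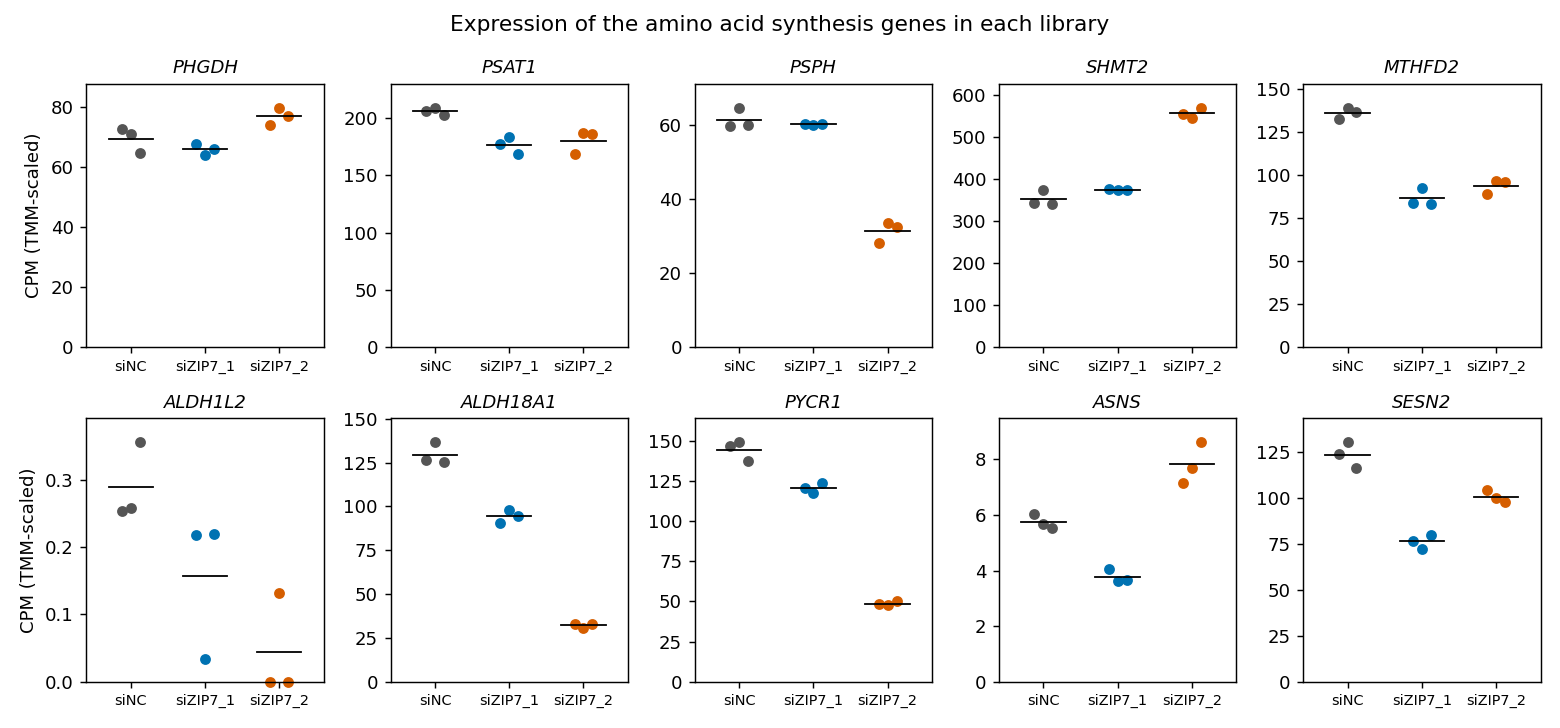
TMM-scaled CPM (y axis, linear, from 0) of each of the 10 genes in every library, by siRNA group, with the group mean as a bar. ALDH18A1, PYCR1 and PSPH sit far lower with siZIP7_2 than with siNC, SHMT2 sits higher with siZIP7_2, and ALDH1L2 stays under 0.4 CPM throughout.

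The 2 proline synthesis genes fell with both siRNAs and had the lowest values with siZIP7_2. ALDH18A1 (ENSG00000059573, chr10:95605929-95656706 in GENCODE on GRCh38), which makes the proline precursor from glutamate, had 126, 137 and 125 CPM in the siNC libraries, 90.4, 98.2 and 94.6 with siZIP7_1 and 32.9, 30.9 and 33.1 with siZIP7_2. The 3 groups did not overlap, and mean levels were 73.0% and 25.0% of siNC. The log2 fold change was -0.45 (SE 0.0497, edgeR adjusted p = 2.93e-09) with siZIP7_1 and -2.0 (SE 0.0543, edgeR adjusted p = 4.74e-23) with siZIP7_2. PYCR1 (ENSG00000183010, chr17:81932384-81942412), the mitochondrial reductase that completes proline, had 147, 149 and 138 CPM with siNC, 120.3, 118 and 124 with siZIP7_1 and 48.4, 47.6 and 50.02 with siZIP7_2. Again each siZIP7_2 library lay below each siZIP7_1 library, and those lay below siNC. PYCR1 fell by 0.26 on the log2 scale with siZIP7_1 (SE 0.0467, edgeR adjusted p = 1.48e-05) and by 1.57 with siZIP7_2 (SE 0.0497, edgeR adjusted p = 1.75e-21). Part of the exons of PYCR1 (29.7% of its exonic length) is shared with MYADML2 and AC145207.4, which had at most 10 counts in any library. The part of this overlap in the PYCR1 counts was not tested. Directly compared, siZIP7_2 was below siZIP7_1 by log2 -1.55 for ALDH18A1 (edgeR adjusted p = 1.04e-20) and -1.31 for PYCR1 (edgeR adjusted p = 6.47e-20).

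PYCR3, the cytosolic reductase of the last step, also fell with both siRNAs. It had 51.8, 52.7 and 51.1 CPM with siNC, 44.2, 38.2 and 37.7 with siZIP7_1 and 11.5, 10.9 and 12.8 with siZIP7_2. The 3 groups did not overlap, and the log2 fold change was -0.38 (SE 0.0622, edgeR adjusted p = 4.40e-06) and -2.15 (SE 0.0720, edgeR adjusted p = 6.27e-21).

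The 3 serine synthesis genes did not move together. PHGDH (ENSG00000092621, chr1:119648411-119744226), the dehydrogenase of the first step, had 72.5, 70.9 and 64.4 CPM with siNC, 67.7, 63.9 and 65.9 with siZIP7_1 and 73.9, 79.7 and 76.9 with siZIP7_2. The siZIP7_1 range overlapped that of siNC (log2 -0.07, SE 0.0529, edgeR adjusted p = 0.220), while siZIP7_2 lay above both (log2 0.15, SE 0.0527, edgeR adjusted p = 0.0111). PHGDH, at 111% of siNC with siZIP7_2, did not pass without siNC replicate 3 (log2 0.11, edgeR adjusted p = 0.0929) or without the low-count filter (log2 0.10, edgeR adjusted p = 0.157). PSAT1 (ENSG00000135069, chr9:78297143-78330093), the transaminase of the middle step, had 206, 209 and 202 CPM with siNC, 177, 183 and 168 with siZIP7_1 and 168, 187 and 186 with siZIP7_2. Both siRNA groups of PSAT1 lay below siNC and overlapped each other, with log2 fold changes of -0.23 (SE 0.0488, edgeR adjusted p = 0.000162) and -0.19 (SE 0.0489, edgeR adjusted p = 0.000831). The PSAT1 call for siZIP7_2 was lost with upper-quartile normalization (log2 -0.09, edgeR adjusted p = 0.0784).

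PSPH (ENSG00000146733, chr7:56011051-56051604), the phosphatase that releases serine, fell with siZIP7_2. It had 59.9, 64.8 and 60.0 CPM with siNC, 60.3, 60.2 and 60.3 with siZIP7_1 and 28.0, 33.7 and 32.4 with siZIP7_2. The siZIP7_1 libraries lay inside the siNC range (log2 -0.03, SE 0.0569, edgeR adjusted p = 0.649), and the siZIP7_2 libraries were at 50.9% of siNC (log2 -0.97, SE 0.0602, edgeR adjusted p = 1.01e-14). The siRNAs differed for PSPH by log2 -0.94 (SE 0.0599, edgeR adjusted p = 1.51e-14). Its pseudogene PSPHP1, with which it shares some sequence, had 58 to 76 counts with siNC, 100 to 114 with siZIP7_1 and 70 to 82 with siZIP7_2, against at least 722 for PSPH in every library.

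Of the mitochondrial folate genes, SHMT2 rose with siZIP7_2 and MTHFD2 fell with both siRNAs. SHMT2 (ENSG00000182199, chr12:57229327-57234935), which transfers a carbon unit from serine to folate, had 342, 373 and 339 CPM with siNC, 375, 373 and 374 with siZIP7_1 and 554, 544 and 569 with siZIP7_2. The siZIP7_1 libraries lay just above the highest siNC library, and the siZIP7_2 libraries stood clear of the others at 158% of siNC (log2 0.66, SE 0.0467, edgeR adjusted p = 1.86e-13). With siZIP7_1 the log2 difference of SHMT2 was 0.09 (SE 0.0467, edgeR adjusted p = 0.0838), and it passed without siNC replicate 2 (log2 0.14, edgeR adjusted p = 0.0147), with upper-quartile normalization (log2 0.12, edgeR adjusted p = 0.0196) and with at least 10 counts required in every library (log2 0.11, edgeR adjusted p = 0.0261). MTHFD2 (ENSG00000065911, chr2:74198562-74217565), which oxidizes that carbon unit, had 133, 139 and 137 CPM with siNC, 83.6, 92.4 and 83.1 with siZIP7_1 and 88.7, 96.4 and 95.6 with siZIP7_2. Both siRNA groups of MTHFD2 lay below siNC, by log2 -0.66 (SE 0.0505, edgeR adjusted p = 1.71e-12) and -0.54 (SE 0.0505, edgeR adjusted p = 8.96e-11), and overlapped each other. The MTHFD2 difference between the siRNAs (log2 0.12, edgeR adjusted p = 0.0401) was lost when any siNC library, siZIP7_1 replicate 1 or 3, or siZIP7_2 replicate 2 or 3 was left out (log2 0.08 to 0.11, edgeR adjusted p = 0.0586 to 0.214), and without the low-count filter (log2 0.07, edgeR adjusted p = 0.338). MTHFD2 shares 33.2% of its exonic length with SLC4A5 and AC006030.1 on the opposite strand, which had at most 8 counts. SHMT2 shares 9.51% of its exonic length with genes on the opposite strand. The part of these overlaps in the counts was not tested.

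ALDH1L2 (ENSG00000136010, chr12:105019784-105084577), which releases carbon dioxide from the folate pool in mitochondria, was near the limit of detection. It had 7, 6 and 10 counts in the siNC libraries, 6, 1 and 7 with siZIP7_1 and 0, 4 and 0 with siZIP7_2. It did not pass the low-count filter and is the gene of the 10 that was not tested, so it has no fold from the filtered fit. Its neighbour C12orf45, which overlaps 1.70% of its exons on the other strand, had 262 to 541 counts.

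**Figure D2:**
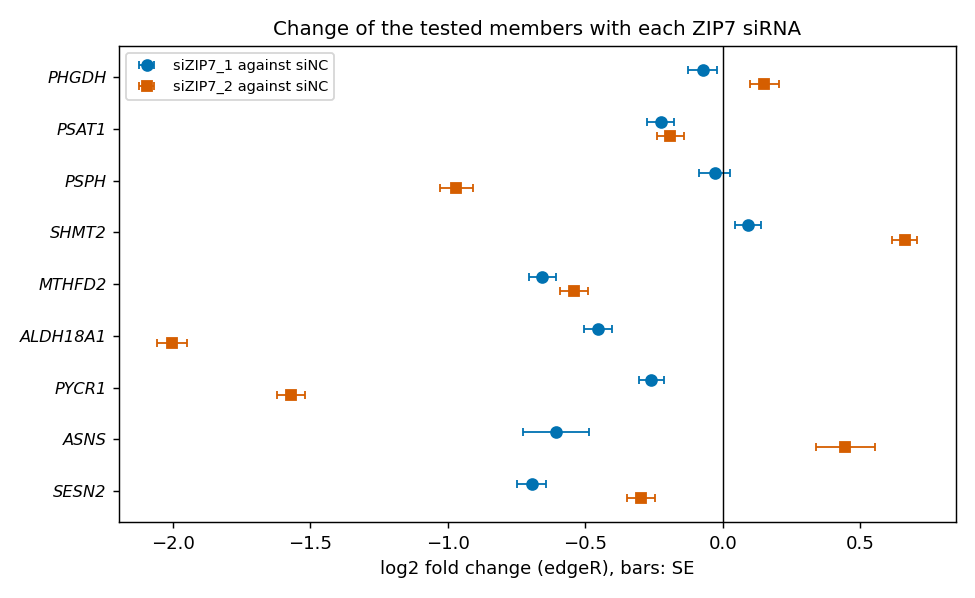
log2 fold change (x axis) of the 9 tested genes with siZIP7_1 (circles) and siZIP7_2 (squares) against siNC, from the edgeR fit, with bars for the SE. ALDH18A1 and PYCR1 lie at -2.0 and -1.57 with siZIP7_2, and ASNS lies on opposite sides of 0 with the 2 siRNAs.

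The cytosolic and other relatives of these folate enzymes took different courses. SHMT1, the cytosolic counterpart of SHMT2, fell with siZIP7_2 from 36.0 ± 0.754 to 19.0 ± 1.22 CPM (SD, n = 3, log2 -0.92, edgeR adjusted p = 9.59e-14), where SHMT2 rose. With siZIP7_1 it was at 38.5 ± 1.20 CPM (log2 0.10, edgeR adjusted p = 0.129), which passed with upper-quartile normalization (edgeR adjusted p = 0.0488). SHMT2 made up 91.5% of the pair per coding length with siNC, 91.5% with siZIP7_1 and 97.0% with siZIP7_2. MTHFD1, the cytosolic enzyme with 3 activities, fell from 241 ± 6.05 to 185 ± 5.79 and 91.8 ± 5.29 CPM. MTHFD1L, the mitochondrial formate-producing enzyme, fell from 95.5 ± 3.21 to 52.3 ± 3.14 and 70.6 ± 5.71 CPM, and was higher with siZIP7_2 than with siZIP7_1 (log2 0.43, edgeR adjusted p = 9.43e-08).

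MTHFD2L, a mitochondrial relative of MTHFD2, fell with siZIP7_1 and rose with siZIP7_2. It had 19.6, 25.0 and 22.9 CPM with siNC, 15.1, 16.7 and 15.7 with siZIP7_1 and 30.97, 25.2 and 28.7 with siZIP7_2, with no overlap between groups (log2 -0.50 and 0.33, edgeR adjusted p = 6.05e-06 and 0.000539). MTHFD2 made up 86.6% ± 1.14 of the pair per coding length with siNC, 85.3% ± 0.341 with siZIP7_1 and 77.9% ± 2.50 with siZIP7_2 (SD, n = 3). ALDH1L1, the cytosolic counterpart of ALDH1L2, rose with siZIP7_1 from 2.77 ± 0.0654 to 15.1 ± 0.436 CPM (log2 2.45, SE 0.115, edgeR adjusted p = 1.78e-17). With siZIP7_2 it had 3.11 ± 0.615 CPM (log2 0.15, edgeR adjusted p = 0.343), and the siRNAs differed by log2 -2.29 (edgeR adjusted p = 2.64e-17).

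**Figure D3:**
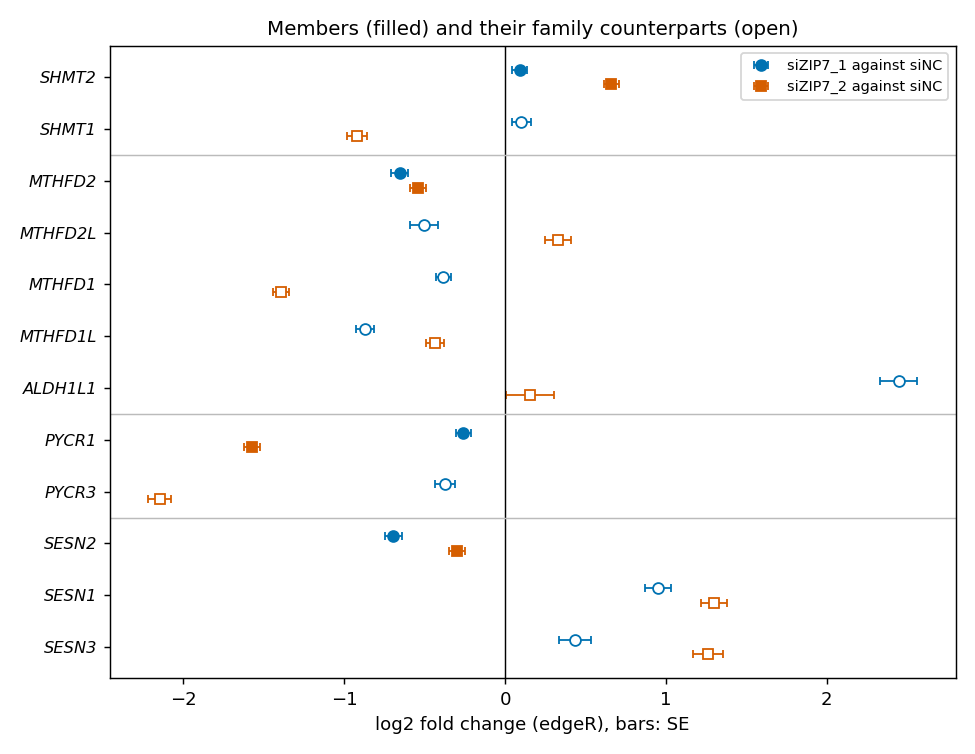
log2 fold change (x axis, bars for the SE) with siZIP7_1 (circles) and siZIP7_2 (squares) against siNC for genes of the 10 (filled) and their relatives (open), with lines between the SHMT, folate, PYCR and sestrin families. PYCR1 and PYCR3 lie left of 0, SHMT1 and SHMT2 lie on opposite sides of 0 with siZIP7_2, and SESN2 lies left of 0 while SESN1 and SESN3 lie right.

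ASNS (ENSG00000070669, chr7:97852118-97872542), the asparagine synthetase, had the lowest level of the genes tested per coding length, and its exons overlap those of another gene. Of its coding bases, 96.1% lie in exons that AC079781.5, a gene annotated on the same strand, also holds, as do 44.6% of its exonic bases, so that reads there could come from either gene and a counter that drops ambiguous reads would leave them out. The counter here set aside 2.85% to 2.91% of reads as ambiguous with siNC, 2.78% to 2.84% with siZIP7_1 and 2.67% to 2.73% with siZIP7_2. How many of these came from ASNS was not tested, and where in ASNS its reads lie is not known from counts per gene. ASNS had 105 to 234 counts per library, and AC079781.5 had 10 to 21. Scaled, ASNS had 6.03, 5.67 and 5.52 CPM with siNC, 4.04, 3.61 and 3.67 with siZIP7_1 and 7.14, 7.70 and 8.61 with siZIP7_2. The 3 groups were apart, siZIP7_1 below and siZIP7_2 above siNC. The log2 fold change of ASNS was -0.61 (SE 0.119, edgeR adjusted p = 4.56e-05) with siZIP7_1 and 0.44 (SE 0.107, edgeR adjusted p = 0.000465) with siZIP7_2, and the siRNAs differed by 1.05 (SE 0.113, edgeR adjusted p = 1.35e-09). The level of ASNS relative to other genes is therefore uncertain.

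SESN2 (ENSG00000130766, chr1:28259527-28282491), the leucine sensor, fell with both siRNAs and more with siZIP7_1. It had 124, 131 and 117 CPM with siNC, 76.7, 72.5 and 80.1 with siZIP7_1 and 104, 99.9 and 98.0 with siZIP7_2. No group overlapped another, and the log2 fold changes were -0.70 (SE 0.0516, edgeR adjusted p = 7.39e-13) and -0.30 (SE 0.0510, edgeR adjusted p = 6.12e-06). The siRNAs differed for SESN2 by log2 0.40 (SE 0.0518, edgeR adjusted p = 5.89e-08). Its relatives went the other way: SESN1 rose from 7.33 ± 0.471 CPM to 14.2 ± 0.358 and 18.1 ± 0.464 (SD, n = 3), and SESN3 rose from 5.67 ± 0.194 to 7.67 ± 0.713 and 13.6 ± 0.492. SESN2 stayed the main sestrin per coding length, at 91.5% of the 3 with siNC, 80.1% with siZIP7_1 and 78.4% with siZIP7_2.

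Between the siRNAs, 5 of the 9 tested genes were higher and 3 lower with siZIP7_2 than with siZIP7_1, where 78.7% of all genes were called (38.1% higher, 40.6% lower). ASNS, PHGDH, SHMT2, MTHFD2 and SESN2 were the higher ones, and PSPH, PYCR1 and ALDH18A1 the lower. PSAT1 did not pass (log2 0.03, edgeR adjusted p = 0.528). The ranges of the libraries were apart for 7 of the 9 genes with siZIP7_1 against siNC, for 9 with siZIP7_2 against siNC and for 7 between the siRNAs, beside 72.1%, 78.7% and 79.7% of all genes. All 3 groups were apart from each other for 5 of the 9 (ASNS, SHMT2, PYCR1, ALDH18A1 and SESN2), as for 48.9% of all genes.

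ATF4 mRNA fell with both siRNAs, and genes that act around it were called in both directions, at shares near those of all genes with siZIP7_1. It had 293, 302 and 289 CPM with siNC, 243, 264 and 258 with siZIP7_1 and 181, 193 and 184 with siZIP7_2. The 3 groups did not overlap (log2 -0.21 and -0.66, edgeR adjusted p = 0.000246 and 1.96e-13). ATF4 is controlled largely at translation, and its protein was not measured. Of the 14 genes of this list, 6 rose and 5 fell with siZIP7_1 (34.8% and 35.9% of all genes did), and 8 rose and 4 fell with siZIP7_2 (38.5% and 39.3% of all genes did), with list medians of log2 0.05 and 0.32. EIF2AK3 (PERK, the kinase of endoplasmic reticulum stress), PPP1R15A, DDIT3 and ATF3 rose with both, ATF4 alone fell with both, and EIF2AK2, CEBPB, CEBPG and TRIB3 went in opposite directions. Upper-quartile normalization moved EIF2AK1 and PPP1R15B with siZIP7_2 and EIF2S1 with siZIP7_1 past the threshold, all upwards.

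EIF2AK3 rose from 19.9 ± 0.703 CPM with siNC to 47.7 ± 1.90 with siZIP7_1 and 37.8 ± 0.714 with siZIP7_2 (SD, n = 3). EIF2AK4 (GCN2), the kinase that senses uncharged tRNA, had 120.4 ± 1.31, 121 ± 2.18 and 93.0 ± 4.22 CPM, and fell with siZIP7_2 (log2 -0.37, edgeR adjusted p = 3.57e-08). EIF2AK1, the heme-regulated kinase, rose with siZIP7_1 (log2 0.79) and EIF2AK2, the kinase of double-stranded RNA, rose with siZIP7_1 (log2 0.29) and fell with siZIP7_2 (log2 -0.51). EIF2S1, which encodes eIF2 alpha itself, fell with siZIP7_2 (log2 -0.59), and had a log2 difference of 0.10 with siZIP7_1 (edgeR adjusted p = 0.0739).

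PPP1R15A (GADD34), the stress-induced subunit that directs eIF2 alpha dephosphorylation, rose by log2 0.53 and 0.15. PPP1R15B, its constitutive counterpart, fell with siZIP7_1 from 203 ± 7.57 to 86.8 ± 3.37 CPM and had 209 ± 4.09 with siZIP7_2 (log2 0.04, edgeR adjusted p = 0.409). CEBPB, a partner of ATF4 at the CARE, had 185, 198 and 186 CPM with siNC, 131, 135 and 136 with siZIP7_1 and 353, 359 and 358 with siZIP7_2. CEBPG, another partner, went the same way, by log2 -0.35 with siZIP7_1 and 0.55 with siZIP7_2. ATF3 rose by log2 0.78 and 1.49, and DDIT3 (CHOP), a factor of prolonged stress, by 0.64 and 0.48. TRIB3, an inhibitor of ATF4 activity, fell by 0.16 with siZIP7_1 and rose by 0.65 with siZIP7_2. NUPR1, a small stress protein, had 7.18 ± 0.542 CPM with siNC and 6.82 ± 1.38 with siZIP7_1 (edgeR adjusted p = 0.608), and rose to 10.9 ± 1.00 with siZIP7_2.

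**Figure D4:**
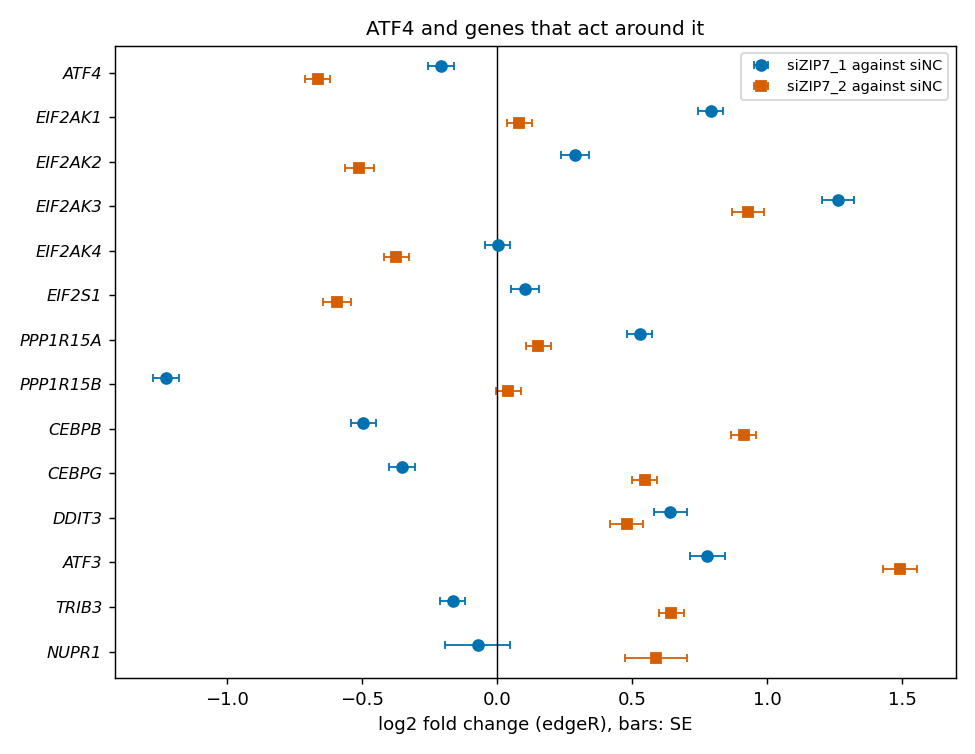
log2 fold change (x axis, bars for the SE) with siZIP7_1 (circles) and siZIP7_2 (squares) against siNC of ATF4 and 13 genes that act before, beside or after it. ATF3, DDIT3, EIF2AK3 and PPP1R15A lie right of 0 with both siRNAs, ATF4 lies left with both, and CEBPB, CEBPG, TRIB3 and EIF2AK2 lie on opposite sides.

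Other known ATF4 targets, a list that also holds some genes of amino acid synthesis, were called in both directions as well. Of 16 tested of 18, 7 rose and 8 fell with siZIP7_1 (34.8% and 35.9% of all genes did), and 10 rose and 4 fell with siZIP7_2 (38.5% and 39.3% of all genes did). Opposite directions were called for 8 of the 16, beside 18.7% of all genes (list medians of log2 -0.08 and 0.27). GDF15, a secreted stress signal, rose from 10.5 ± 0.696 to 110.2 ± 9.11 and 44.96 ± 2.02 CPM (SD, n = 3, log2 3.39 and 2.10, edgeR adjusted p = 1.19e-25 and 1.82e-20). KLHL24 rose by log2 1.99 and 0.89.

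Of 18 other enzymes of serine, proline, asparagine, glutamate and aspartate metabolism, 12 were tested. Of these, 2 rose and 7 fell with siZIP7_1 and 4 rose and 8 fell with siZIP7_2 (list medians of log2 -0.28 and -0.48). Of all genes, 34.8% rose and 35.9% fell with siZIP7_1, and 38.5% rose and 39.3% fell with siZIP7_2. SDSL, a serine dehydratase-like enzyme, fell from 13.5 ± 1.49 to 3.89 ± 0.112 and 3.71 ± 0.232 CPM (SD, n = 3, log2 -1.79 and -1.86). SRR, the serine racemase, fell from 11.9 ± 0.566 to 6.19 ± 0.368 and 2.50 ± 0.199 CPM (log2 -0.93 and -2.24). Of 19 other folate and glycine enzymes and carriers, 18 were tested. Of these, 3 rose and 10 fell with siZIP7_1 and 2 rose and 14 fell with siZIP7_2 (shares of all genes as above). TYMS, which uses folate-bound carbon to make thymidylate, fell from 295 ± 9.65 to 151 ± 6.30 and 77.2 ± 9.26 CPM. GLDC, a subunit of the glycine cleavage system, was near the limit, with 3, 3 and 5 counts with siNC, none in the 3 siZIP7_1 libraries and 17, 14 and 14 with siZIP7_2.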

How the data were processed

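Total RNA of MDA-MB-231 cells was sequenced as single reads. Per the labels and the submitters' processing notes, the authors used Trim Galore 0.4.1, FastQC 0.11.2, STAR and HTSeq 0.6.1, and the deposited files hold unnormalized read counts by Ensembl gene, 1 file a library. The genome build and strand setting are not given in the sources used here. The counter's summary lines, which list no reads with several alignments, were left out. GENCODE release 29 (GRCh38) gave symbols and exons for 58275 of 58395 identifiers. The test was run with edgeR 4.0.16 in R 4.3.3 (TMM, low-count filter, 1 quasi-likelihood fit over the 3 groups, Benjamini-Hochberg adjustment at 0.05), which tested 16761 genes. The SE is the absolute log2 fold change over the root of the F statistic. The steps were tested on simulated data. The 10 genes and the lists were chosen with earlier results of these data known. Named genes are the 10, the target, the family counterparts (1 is not reported here) and the ATF4-related genes, and from each other list the 2 tested genes whose mean log2 fold change over both siRNAs was largest in size. Alternatives were DESeq2 1.42.0, other normalizations and filters, a replicate block, a test against 1.8-fold, the compared groups alone, and leaving out each library. Within a group, library pairs differed by 2.48 to 6.54 chi-square units per gene, and between groups by 166 to 294.5, so no pair agreed within sampling noise.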

Additional observations from a re-analysis of the deposited data

Results flagged for a closer look

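ASNS had different directions with the siRNAs: all 3 siZIP7_1 libraries lay below and all 3 siZIP7_2 libraries above the siNC range, and the direct test of the difference gave a log2 value of 1.05 (SE 0.113, edgeR adjusted p = 1.35e-09). The value rests on 105 to 234 counts per library, AC079781.5 shares 96.1% of the coding bases of ASNS, and the part of that overlap in the counts and in the difference was not tested. With 3 libraries a group, no test for a single deviating library was made.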

How the results depend on the processing

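Across 459 values of the 9 tested genes under the alternatives, 424 kept their direction and side of the threshold, 28 lost the threshold, 4 gained it and 3 turned in sign. The 3 that turned were not called in the first place: PSAT1 for siZIP7_2 against siZIP7_1 was -0.0139 on the log2 scale without the low-count filter and -0.00728 to 0.0842 with a library left out (lowest without siZIP7_1 replicate 3), and PSPH for siZIP7_1 against siNC was -0.0520 to 0.0136 with a library left out (highest without siNC replicate 2). Tested against a 1.8-fold change (glmTreat), 0 of the 9 genes passed with siZIP7_1 (6 at an unadjusted p under 0.05 against no change), 3 with siZIP7_2 (PSPH, PYCR1 and ALDH18A1) and 3 between the siRNAs (ASNS, PYCR1 and ALDH18A1), and 2836, 4134 and 4725 of all genes did, in place of 11851, 13038 and 13187. Leaving out each library gave 6 to 7, 8 to 9 and 7 to 8 of the 9 genes, and 11291 to 11984, 12633 to 13360 and 12840 to 13458 of all genes. With a replicate block, 6, 9 and 8 of the 9 genes and 11927, 13080 and 13242 of all genes were called. Same-numbered libraries had a mean correlation of deviations of 0.0235 over 9 pairs (-0.12 to 0.13). Differently numbered ones had -0.0120 over 18 pairs (-0.25 to 0.20). With 3 libraries a group, these values cannot settle whether the numbers pair libraries. Without the low-count filter ALDH1L2 was tested, with log2 values of -0.86 and -2.53 (edgeR adjusted p = 0.246 and 0.00105) that rest on 0 to 10 counts. Low counts limit what can be said of ALDH1L2 and ASNS. The part of depth and of the exon overlap in the ASNS counts was not tested.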

Other observations

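Amino acid carriers and tRNA-charging enzymes act beside the synthesis genes. Over all genes tested, 34.8% rose and 35.9% fell with siZIP7_1, and 38.5% rose and 39.3% fell with siZIP7_2. Of 12 transporters tested of 13, 2 rose and 6 fell with siZIP7_1 and 2 rose and 7 fell with siZIP7_2, with list medians of log2 -0.26 and -0.17. SLC7A5, the large neutral amino acid carrier, fell from 1899 ± 117 to 1059.7 ± 13.9 and 754 ± 24.5 CPM (SD, n = 3), and SLC6A9, a glycine carrier, fell from 81.1 ± 1.84 to 26.2 ± 1.86 and 36.9 ± 2.43. Of 20 cytosolic tRNA synthetases, 7 rose and 10 fell with siZIP7_1 and 4 rose and 14 fell with siZIP7_2 (medians -0.13 and -0.43). FARSB, a subunit of phenylalanyl-tRNA synthetase, fell by 0.88 and 2.55 on the log2 scale, and LARS, the leucyl-tRNA synthetase, by 0.51 and 1.64.

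Of 17 partners of the sestrins in amino acid sensing, 9 rose and 3 fell with siZIP7_1, and 4 rose and 11 fell with siZIP7_2 (medians 0.27 and -0.40). Beside this list and the marker lists, the shares over all genes were 34.8% higher and 35.9% lower with siZIP7_1. With siZIP7_2 they were 38.5% and 39.3%, and 18.7% of all genes were called in opposite directions with the siRNAs. CASTOR2, a relative of the arginine sensor CASTOR1, rose from 1.11 ± 0.146 to 4.40 ± 0.227 and 6.11 ± 0.551 CPM (SD, n = 3). RRAGC, a Rag GTPase that brings mTORC1 to lysosomes, rose from 23.8 ± 1.15 to 56.0 ± 5.55 and 40.0 ± 1.60. Of the 5 markers of the line, 1 rose and 4 fell with siZIP7_1, and 2 rose and 3 fell with siZIP7_2 (medians -0.25 and -0.39), and 3 of the 5 went in opposite directions. Over the 5, log2 values ranged from -1.04 to 0.59 with siZIP7_1 and from -0.93 to 1.14 with siZIP7_2. The 2 with the largest mean change fell, VIM by log2 1.04 and 0.93 and AXL by 0.14 and 0.93. Of 5 tested of the 6 markers that the line should lack, 4 rose and 1 fell with siZIP7_1, and 3 rose and 1 fell with siZIP7_2. Their log2 values ranged from -4.83 to 3.14 with siZIP7_1 and from -0.57 to 2.43 with siZIP7_2, and 2 of the 5 went in opposite directions. CDH1 went from 0.466 ± 0.125 CPM to 4.18 ± 0.290 and 0.998 ± 0.254.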
